A study of Mus musculus with 6 samples.

Results

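Transcription factor genes of lymphoid progenitors and memory-type lymphocytes were followed through NK cell maturation: Myb, Myc, Tcf7, Lef1, Bach2, Tox, Id2, Id3, Nfil3 and Ets1. The 10 genes were chosen by name, and every probe set that the array annotation assigns to one of these names alone was taken. This gave 21 probe sets of 9 genes, out of 45037 non-control probe sets and 18193 genes on the array. No probe set carried the name Tcf7 in the annotation used, so Tcf7 (T cell factor 1) is not analysed here.

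The cells were NK1.1+ spleen cells of RAG-/- mice, which lack mature T and B cells because antigen receptor genes cannot be rearranged; no treatment, age or sex is given in the labels. All 3 groups share that genotype and differ in the flow cytometry gate: CD27+CD11b- (CD27 alone), CD27+CD11b+ (both markers) and CD27-CD11b+ (CD11b alone). CD27 is a co-stimulatory receptor and CD11b an integrin chain, and NK cells are generally held to pass through these stages from first to last as they mature. Each subset has 2 samples, each on 1 Affymetrix whole-genome mouse array, 6 arrays in all. The design calls the 2 independent replicates; nothing in the labels ties them to different animals, so the p-values rest on a spread that may be only technical. Values are log2 expression levels, and differences are log2 differences from 1 limma fit over all 6 arrays, with its standard error (SE) and a Benjamini-Hochberg adjusted p over all 18193 genes. A gene with several probe sets is represented in that fit by the one with the highest mean over the 6 arrays, and a change was called at an adjusted p under 0.05. A mean under 6.50, the 95th percentile of the levels of 54 genes of other tissues on these arrays, is called near background.

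Levels differed between arrays in ways the subsets do not explain. Of 9160 probe sets without a gene name, 3 were picked for the widest gap between their 3 lowest and 3 highest arrays. These 3 averaged between 12.57 and 12.81 on the second array of both CD27+ subsets and the first of CD27-CD11b+ (the high-side arrays). On the remaining 3 arrays (the low-side arrays) they averaged between 4.33 and 4.47. Their separation was selected for, and every fit with this array division as a block rests on that choice. Each side holds 1 array of every subset, so each difference is also given within both sides. Cell cycle genes (19 measured) averaged from 7.15 to 9.08 over the arrays, and the 11 monocyte and macrophage markers from 6.31 to 7.83. For 1 array, CD27-CD11b+ replicate 1, the title and the sorting text disagree: the text gives the CD27+CD11b- gate. The array was grouped by title. Its level of Cd27, the sorting marker, was 6.96, against 6.47 in replicate 2 and 8.03 or more in the other 4 arrays. All 11 measured NK cell markers, among them Ncr1, Nkg7, Klrd1, Eomes and Tbx21, were above background. All 8 measured B cell markers were near background in every subset, and so were 6 of 9 T cell markers, Cd3e, Cd4 and Cd8a among them. The others were Lat, Cd3g and Cd3d, and Cd3d, a chain of the T cell receptor complex, was above it in CD27+CD11b- cells (7.92) and near background in CD27-CD11b+ cells (5.53). In RNA of bulk sorted cells, fewer cells with a transcript and less transcript per cell cannot be told apart.

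These factors work at different points of lymphocyte development. MYB sustains progenitor and self-renewing lymphoid cells, and MYC drives growth and ribosome synthesis. TCF1 and LEF1 are partner proteins of beta-catenin that maintain progenitor and memory programmes, and BACH2 is a repressor that restrains effector differentiation. ID2 and ID3 are helix-loop-helix proteins without a DNA-binding part that hold E proteins inactive, and ID2, NFIL3, TOX and ETS1 are needed at early steps of NK cell development.

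Of the 9 measured genes, Myb alone passed the test in a pairwise comparison. It was high in both CD27+ subsets and 7.38-fold lower in CD27-CD11b+ cells than in CD27+CD11b+ cells. Myc had the next largest difference, in the same direction, but did not pass. Lef1, Bach2, Nfil3 and Ets1 had subset means at most 0.41 apart on the log2 scale by the probe set used. Tox and Id3 had their highest means in CD27+CD11b- cells, at 7.11 for Tox and under background for Id3, and the 3 probe sets of Id2 gave different sizes.

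Promoter sequences are printed for 2 genes, because Myb is the gene with the called difference and Id2 the factor whose call depends on which probe sets are used. Each line holds the 250 bases before the RefSeq start of the gene, from the RefSeq promoter table of build GRCm38.p6, on the gene's own minus strand. Capitals mark the ETS core GGAA (TTCC on the other strand), the letters bound by ETS1 and its relatives, and the E box CANNTG, the letters bound by the E proteins that ID2 holds inactive. The Myb stretch is chr10:21160985-21161234 and the Id2 stretch chr12:25096093-25096342.
Myb: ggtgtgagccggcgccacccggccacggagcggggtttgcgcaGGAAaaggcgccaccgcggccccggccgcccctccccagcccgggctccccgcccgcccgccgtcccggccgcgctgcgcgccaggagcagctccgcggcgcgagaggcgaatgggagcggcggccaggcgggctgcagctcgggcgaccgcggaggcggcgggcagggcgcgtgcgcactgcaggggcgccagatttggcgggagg
Id2: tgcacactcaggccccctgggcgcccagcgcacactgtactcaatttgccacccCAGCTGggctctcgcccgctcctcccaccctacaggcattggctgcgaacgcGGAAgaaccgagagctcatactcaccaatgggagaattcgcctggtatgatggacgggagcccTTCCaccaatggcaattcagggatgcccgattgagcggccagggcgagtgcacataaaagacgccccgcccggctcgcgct
The Myb stretch holds 1 ETS core and 0 E boxes, at 81.2% G and C, and the Id2 stretch 2 ETS cores and 1 E box, at 62.8% G and C. Of all 32851 promoter entries cut to the same 250 bases, 93.4% hold an ETS core and 66.2% an E box on either strand. A match is a description of the letters, not of binding. The MYC-type E box CACGTG, itself a form of CANNTG, is in neither stretch and in 6.02% of all entries. RefSeq promoter entries were found for 7 of the 10 genes, Tcf7 among them; Myc, Tox and Ets1 had none.

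Myb encodes the DNA-binding protein c-Myb. Its probe set with the highest level (1421317_x_at) read 9.58 and 9.85 in CD27+CD11b- cells, 9.78 and 9.92 in CD27+CD11b+ cells, and 7.04 and 6.89 in CD27-CD11b+ cells. Both CD27-CD11b+ arrays lay below all 4 arrays of the CD27+ subsets, and the arrays of the CD27+ subsets overlapped. The difference was -2.88 (SE 0.16, limma adjusted p = 0.000759) from CD27+CD11b+ to CD27-CD11b+, where it had the 2nd smallest p of all genes, and -2.75 (SE 0.16, limma adjusted p = 0.000288) from CD27+CD11b- to CD27-CD11b+, a 6.73-fold fall. Between the CD27+ subsets it was 0.13 (95% interval -0.24 to 0.51) and did not pass. Of all genes, 0.126% were called lower at the loss of CD27 and 1.15% between the outer subsets. At the gain of CD11b 0.033% were called higher and 0.0879% lower. In the F test of any difference among the 3 subsets Myb was the 1 of 9 factors called (limma adjusted p = 0.000376), against 1.35% of all genes.

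The other Myb probe sets moved the same way. Probe set 1450194_a_at read 8.04 and 8.25, then 7.97 and 8.28, then 4.59 and 5.24 in the order of maturation, so it went from clearly above to near background. In a fit over all 45037 probe sets its difference at the loss of CD27 was -3.21 (SE 0.24, limma adjusted p = 0.0351, or 0.0591 and not called with the array division as a block), and measured from the background level the fall was at least 3.09-fold. Probe set 1422734_a_at was near background throughout, at 4.50 and 4.74, then 4.40 and 4.94, then 3.36 and 3.26. It did not pass (-1.36, SE 0.21, limma adjusted p = 0.201), although its CD27-CD11b+ arrays also lay below the other 4. The suffix x_at marks probes that can match transcripts of other genes, and the suffix a_at marks probes shared by transcripts of 1 gene. The 2 probe sets called were the ones above background, and no other probe set of the 21 was called, against 0.04% of probe sets called at this step and 0.639% between the outer subsets. Of the 21 probe sets, 4 had all CD27-CD11b+ arrays below all CD27+CD11b+ arrays, the 3 of Myb and the 1 of Myc, as did 16.8% of all probe sets.

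The difference in Myb was as large on either side of the array division. At the loss of CD27 it was -2.89 between the low-side arrays and -2.88 between the high-side arrays, and between the outer subsets -2.69 and -2.81. The median of the 19 cell cycle genes at the loss of CD27 was -1.51 on the low side and -0.27 on the high side. Of these genes 0 were called in the main fit and 4 lower with the division as a block (Mki67, Ccnb2, Ccna2 and Bub1). At this step 0.126% of all genes were called lower in the main fit, and 1.63% in either direction with the block. Markers of other innate lymphoid cells (5 measured) averaged 9.33, 7.76 and 7.40 in the order of maturation. Of these 5, 3 were called lower between the outer subsets: Il7r, Tmem176a and Tmem176b. The 7 stem and progenitor markers averaged 5.56, 5.21 and 4.92. Of these, 1 was called lower between the outer subsets, Kit (8.25 to 5.10), and Cd34 was near background throughout. Among all genes 1.15% were called lower there. The part of these cells in the Myb values was not tested. Leaving out CD27-CD11b+ replicate 1, the array with the conflicting sort description, gave -2.96 for Myb (limma adjusted p = 0.0248). Over the 15 alternative settings the difference lay between -2.96 and -2.49 with adjusted p from 2.17e-05 to 0.0248. Whether the fall belongs to the second step more than to the first was tested directly: the second step minus the first was -3.02 (SE 0.28, limma adjusted p = 0.0501), which did not pass. That adjusted p was 0.0119 with the array division as a block, 0.0448 without dim genes, 0.00690 with an intensity trend and robust prior, and between 0.0652 and 0.592 in the other alternatives. The 2 steps share the CD27+CD11b+ arrays. Of all genes, 0.0055% were called in this test.

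**Figure D1:**
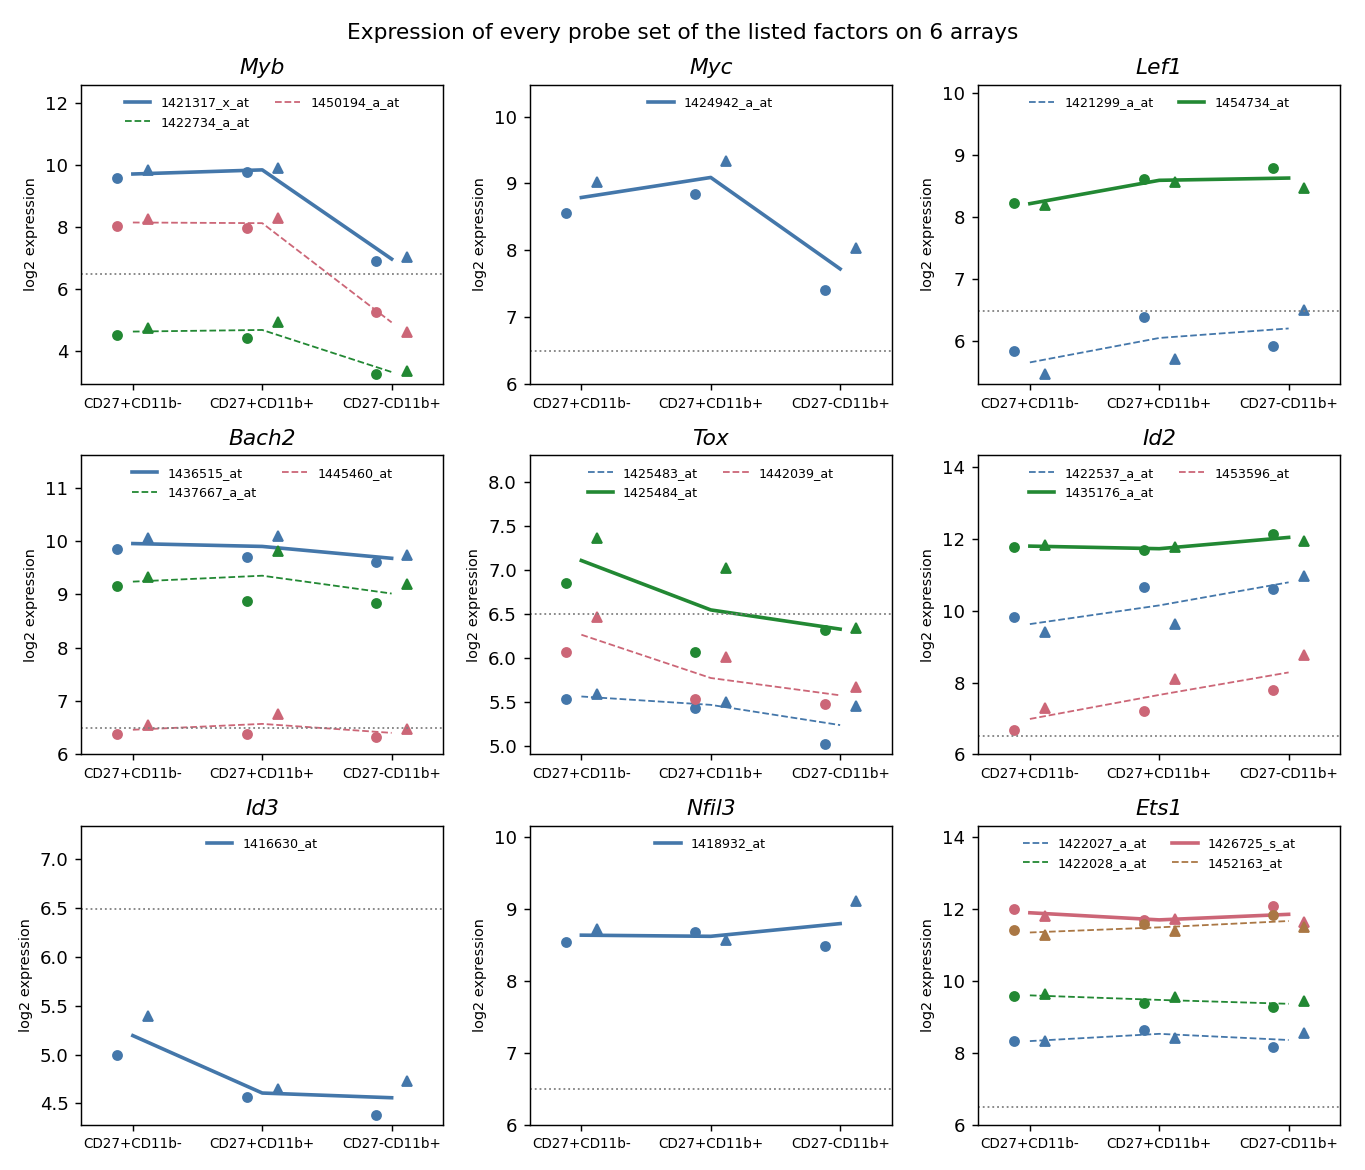
Log2 expression (vertical axes) of all 21 probe sets of 9 genes in the 3 subsets (horizontal axes); circles are low-side and triangles high-side arrays, lines join subset means, the thick line is the probe set used in the gene fit and the dotted line is the background level of 6.50. The Myb probe sets above background drop between CD27+CD11b+ and CD27-CD11b+, to 6.96 and 4.91, while the brightest Bach2 probe set goes from 9.95 to 9.67.

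Myc, which encodes a master activator of cell growth, has 1 probe set. It read 8.55 and 9.03 in CD27+CD11b- cells, 8.84 and 9.34 in CD27+CD11b+ cells, and 8.03 and 7.41 in CD27-CD11b+ cells. Both CD27-CD11b+ arrays were again the lowest of the 6, as for 2 of 9 factors against CD27+CD11b+ cells and 17.1% of all genes, and the CD27+ subsets overlapped. The difference at the loss of CD27 was -1.37 (SE 0.27, limma adjusted p = 0.127), 2.59-fold in size, and between the outer subsets -1.07 (SE 0.27, limma adjusted p = 0.0798). In every subset the high-side array was the higher one. With the array division as a block both differences passed, at limma adjusted p = 0.00466 and 0.00416, where 1.63% and 8.13% of all genes were called. Over the 15 alternatives the adjusted p ranged from 0.00466 to 0.311 at the loss of CD27 and from 0.00416 to 0.260 between the outer subsets. Without CD27-CD11b+ replicate 1 the difference at the loss of CD27 was -1.69 and without replicate 2 -1.06. Within the sides the difference at the loss of CD27 was -1.44 and -1.30, in the order low and high. At the gain of CD11b it was 0.30 (95% interval -0.32 to 0.93).

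Lef1 encodes the beta-catenin partner LEF1, the closest relative of TCF1. Its brighter probe set (1454734_at) read 8.23 and 8.20, then 8.62 and 8.57, then 8.46 and 8.80. The CD27+CD11b- arrays were the lowest, and the CD11b+ subsets overlapped. The outer difference was 0.41 (SE 0.16, limma adjusted p = 0.221), opposite in sign to that of Myb. The dimmer probe set (1421299_a_at) was near background in all subsets, at 5.66 ± 0.25, 6.05 ± 0.47 and 6.21 ± 0.41 (SD, n = 2).

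Bach2 encodes a repressor of the basic leucine zipper class. Its brightest probe set (1436515_at) read 9.85 and 10.05, then 9.70 and 10.09, then 9.73 and 9.61. The CD27-CD11b+ arrays overlapped with those of CD27+CD11b+ and lay just under those of CD27+CD11b- cells. The outer difference was -0.28 (95% interval -0.69 to 0.14, limma adjusted p = 0.461). On the other probe sets it was -0.22 and -0.06, and no Bach2 probe set was called.

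Tox encodes a high-mobility-group factor of early lymphoid development. Its brightest probe set (1425484_at) read 6.85 and 7.36, then 6.07 and 7.02, then 6.34 and 6.31. The CD27+CD11b- arrays exceeded both CD27-CD11b+ arrays, and the CD27+CD11b+ arrays spanned the gap. The outer difference was -0.78 (SE 0.30, limma adjusted p = 0.218), with -0.54 on the low side and -1.02 on the high side. Its CD27-CD11b+ mean of 6.33 is near background, so the size of the difference cannot be read in full. The CD27+CD11b- mean was 1.53-fold above the background level, and the difference did not pass. The probe sets 1442039_at and 1425483_at gave -0.69 and -0.32, both near background in every subset. All 3 Tox probe sets had non-overlapping outer subsets in the same order, as did 22.8% of all probe sets. Nfil3, the basic leucine zipper factor at the start of NK commitment, read 8.54 and 8.72, then 8.67 and 8.56, then 9.10 and 8.48. Its subsets overlapped in all pairs, and its outer difference was 0.16 (95% interval -0.33 to 0.66, limma adjusted p = 0.744).

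Id2 restrains E proteins and marks the innate lymphoid lineage. Its brightest probe set (1435176_a_at) read 11.77 and 11.84, then 11.69 and 11.78, then 11.96 and 12.14, an outer difference of 0.24 (SE 0.15, limma adjusted p = 0.430). Probe set 1422537_a_at read 9.84 and 9.42, then 10.67 and 9.63, then 10.97 and 10.62. Probe set 1453596_at read 6.67 and 7.30, then 7.22 and 8.09, then 8.78 and 7.79. On all 3 probe sets the CD27-CD11b+ arrays lay above the CD27+CD11b- arrays, against 24% of all probe sets in that direction. The dimmer probe sets gave outer differences of 1.17 (SE 0.35, limma adjusted p = 0.211) and 1.30 (SE 0.43, limma adjusted p = 0.246) over all probe sets. With the array division as a block the latter, 1453596_at, was called (limma adjusted p = 0.0350). With the mean of the 3 probe sets standing for the gene, the outer difference was 0.90 and passed (limma adjusted p = 0.0315); over the 15 alternatives the adjusted p ran from 0.0315 to 0.813. At the gain of CD11b the brightest probe set gave -0.07 and the mean of the 3 gave 0.37, and neither passed.

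Id3, the second ID protein, was near background in every subset, at 4.99 and 5.39, then 4.56 and 4.65, then 4.73 and 4.38, so no fold change is given. The CD27+CD11b- arrays were the highest, with an outer difference of -0.64 (SE 0.19, limma adjusted p = 0.127). It passed with the array division as a block (limma adjusted p = 0.0395) and ranged from 0.0395 to 0.410 over its 14 alternatives. The sign is opposite to that of Id2, but Id3 is too dim on this array for its level to be read.

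Ets1 encodes the founding member of the ETS family. Its brightest probe set (1426725_s_at) read 11.99 and 11.80, then 11.69 and 11.71, then 11.63 and 12.07, with an outer difference of -0.04 (95% interval -0.46 to 0.38, limma adjusted p = 0.925). Probe set 1452163_at gave 0.32, 1422028_a_at -0.23 and 1422027_a_at 0.03, and none of the 4 was called. The 2 brightest had differences of opposite sign.

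**Figure D2:**
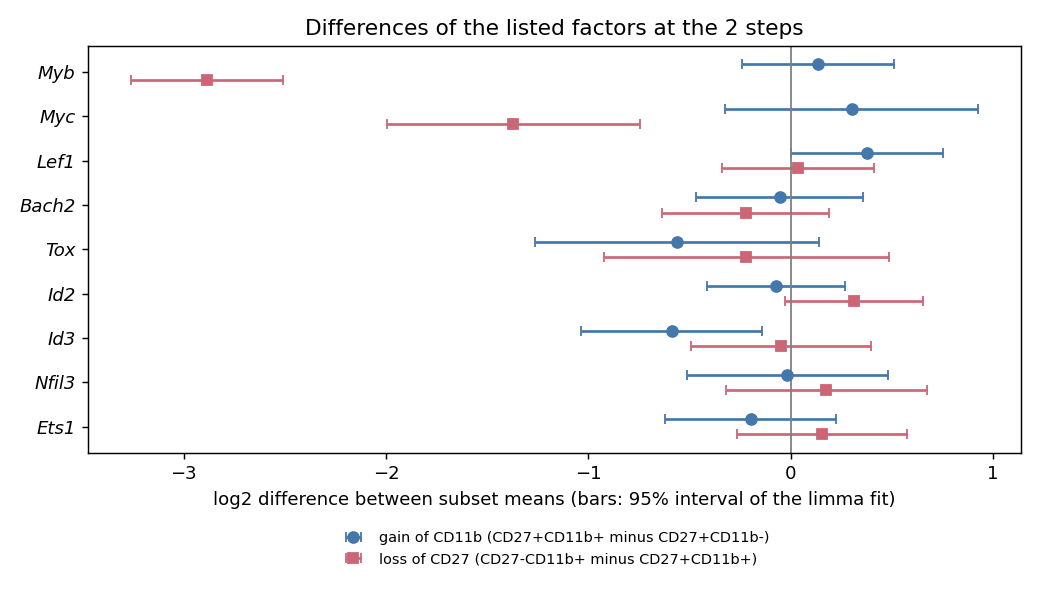
Log2 difference (horizontal axis) of each of the 9 genes (vertical axis) at the gain of CD11b (circles) and at the loss of CD27 (squares), with unadjusted 95% intervals of the limma fit as bars. Myb at the loss of CD27 lies at -2.88 and Myc at -1.37, and the other differences lie between -0.59 and 0.38.

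Counted over the 9 genes, 0 of 9 were called at the gain of CD11b by limma (2 at an unadjusted p under 0.05), 1 at the loss of CD27 (2 unadjusted) and 1 between the outer subsets (5 unadjusted). Among all genes 0.121%, 0.297% and 3.39% were called, and 3.79%, 11.1% and 18.9% were under 0.05 unadjusted. The median difference of the 9 genes was -0.05, -0.05 and -0.28 in these comparisons, against -0.01, 0.02 and -0.01 over all genes. Between the outer subsets 5 of 9 had all arrays lower and 2 of 9 all arrays higher in CD27-CD11b+ cells; 24.3% and 26.9% of all genes did.

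**Figure D3:**
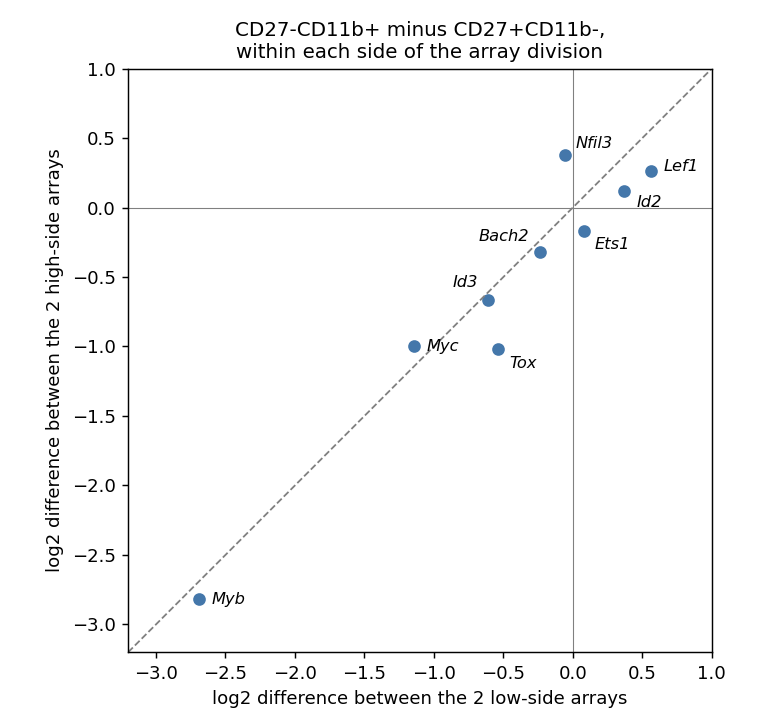
Log2 difference between CD27-CD11b+ and CD27+CD11b- for each of the 9 genes, on the low-side arrays (horizontal axis) and on the high-side arrays (vertical axis), with the line of equal differences dashed. Myb lies near the line at -2.69 and -2.81 and Myc at -1.15 and -0.99, and Nfil3 and Ets1 have opposite signs on the 2 sides.

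The genes that work with these factors were read from lists of known partners. These lists were chosen with earlier results of these data known, so their counts and medians describe their members only. Between the outer subsets 2.24% of all genes were called higher and 1.15% lower in the main fit. These shares are the background for the main-fit counts of that comparison below. With the array division as a block 8.13% of all genes were called there, in either direction. In the dimer network of MYC, 1 of 13 measured genes was called between the outer subsets: Mxi1, which competes with MYC for its partner MAX, rose by 1.10 (SE 0.17, limma adjusted p = 0.0160). It went from 7.10 ± 0.21 to 8.20 ± 0.0024 (SD, n = 2). It was not called without CD27+CD11b- replicate 1 or either CD27-CD11b+ array. Nor was Mxi1 called with all probe sets tested. The other 12 were not called, among them Mxd4 at 0.40, Mlx at 0.40 and Mxd3 at -0.33. Of 20 growth genes under MYC control, 2 fell: Odc1, the first enzyme of polyamine synthesis, by 1.71 on the log2 scale (SE 0.23, limma adjusted p = 0.00927), and Tfrc, the transferrin receptor, by 0.78 (SE 0.16, limma adjusted p = 0.0445). The remaining 18 did not pass, with Srm at -0.99, Slc7a5 at -0.84 and Npm1 at -0.65. The list had 16 negative differences and a median of -0.27 (-0.34 low side, -0.22 high side), against -0.01 over all genes. The median ran from -0.44 (without CD27-CD11b+ replicate 1) to -0.20 (without replicate 2) when arrays were left out in turn, and 0 genes were called without the former and 1 without any other array. With the division as a block 5 were called lower, Srm, Slc7a5 and Npm1 among them. The count was 3 without dim genes and 4 with an intensity trend and robust prior. It was 1 with 32 added on the linear scale, median centring, the mean of all probe sets or all probe sets tested. Cell cycle genes had an outer median of -1.49 (-1.93 low side, -0.76 high side) with Mki67 the 1 of 19 called, and 10 of 19 lower with the array division as a block. Their part in the Myc and growth gene values was not tested.

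Among partners of LEF1 and TCF1, 1 gene was called. Of 21 measured beta-catenin pathway genes, Axin2, a feedback inhibitor and widely used target gene of that pathway, fell by 0.88 between the outer subsets (SE 0.17, limma adjusted p = 0.0345), from 7.44 ± 0.16 to 6.56 ± 0.16 (SD, n = 2). Axin2 was not called with 32 added on the linear scale, with the mean of all probe sets or with all probe sets tested. The call was lost without either CD27+CD11b- array or either CD27-CD11b+ array. The other 20 did not pass, with Tle5 at 0.69, Axin1 at 0.36 and Bcl9l at 0.33, and the list median was 0.12, or between 0.0024 and 0.21 over the alternatives. Neither the 8 E protein and ID relatives (Tcf12 at -0.64, Zbtb16 at 0.53, Tcf4 at -0.43) nor the 7 MYB relatives and co-factors (Cebpb at -0.78, Ep300 at 0.42, Men1 at 0.30) had a member called in the main fit. None of the 3 other TOX genes was called either (Tox4 at 0.06), nor any of 14 NFIL3 relatives and clock genes (Nr1d2 at 0.77, Tef at 0.63, Per1 at -0.34). With the array division as a block, where 8.13% of all genes were called, Tcf12, Cebpb and Hlf (-0.62) were called lower and Tef higher, and Tcf7l2 (-0.85) joined Axin2.

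Among 16 relatives and partners of BACH2, Nfe2, a basic leucine zipper factor that like BACH2 pairs with small MAF proteins, was higher in CD27-CD11b+ cells. Its level went from 4.93 ± 0.12 to 6.50 ± 0.30 (SD, n = 2), from near background to the background level, with a difference of 1.58 (SE 0.19, limma adjusted p = 0.00563). The call was lost without CD27-CD11b+ replicate 1. The other 15 were not called, with Maff at -1.72, Batf3 at -1.29 and Junb at 0.84. Of 16 ETS family genes Etv3, a repressor of the family, fell by 1.33 on the log2 scale (SE 0.27, limma adjusted p = 0.0425), a call lost without any single array of the outer subsets, and 15 did not pass (Ets2 at -0.78, Fli1 at 0.54, Elk3 at 0.36). Etv3 was not called with 32 added on the linear scale, median centring, the mean of all probe sets or all probe sets tested. With the array division as a block Maff, Batf3, Maf (-0.63) and Ets2 were also called lower, and Jun (0.82) higher.

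Effector-type transcription factors and memory-associated surface genes are given beside these, as the programmes that progenitor and memory factors are set against or accompany. Both lists were chosen with earlier results of these data known, so their counts and medians describe their members only. Of 10 effector-type factors, 5 rose between the outer subsets and 0 fell: Prdm1 (Blimp-1, repressed by BACH2 in other lymphocytes) by 2.34, Zeb2 by 2.30, Klf2 by 1.52, Irf8 by 1.12 and Tbx21 (T-bet) by 1.10, with limma adjusted p from 0.000466 to 0.0448. Prdm1 and Zeb2 also rose at the loss of CD27, by 1.47 and 1.38, where 0.17% of all genes were called higher. Leaving out arrays in turn, 2 to 5 rose, 2 without either CD27-CD11b+ array. With 32 added on the linear scale 3 rose. The count was 4 with replicate number as a block, with an intensity trend and robust prior, or with the mean of all probe sets. Irf4 (-0.76) was called lower with the division as a block. With only the 2 subsets compared, and with the intensity trend and robust prior, 1 of the 10 was also called lower. Eomes, Runx3 and Bhlhe40 were not called, at 0.22, -0.21 and 0.09. Of 18 memory-associated genes other than Cd27, which was used for the sort, 8 fell and 0 rose, with a median of -1.71 (-1.73 low side, -1.64 high side). They were the interleukin-7 receptor chain Il7r (-4.29), the glycoprotein Emb (-3.52), Ltb (-3.48), the stem cell factor receptor Kit (-3.16), Cd160 (-2.66), Cd28 (-2.13), the chemokine receptor Cxcr3 (-2.10) and Slamf6 (-2.02), with limma adjusted p from 6.26e-05 to 0.00927. Leaving out arrays in turn, 6 to 9 fell. At the loss of CD27, 6 of the 18 were called lower (Il7r, Emb, Ltb, Cxcr3, Cd160 and Slamf6), against 0.126% of all genes. With the division as a block 10 of the 18 were called lower at this step, Xcl1 and Icos among them. In that fit 1.63% of all genes were called, in either direction. Il7r and Cd160 also fell at the gain of CD11b, where 0.0879% of all genes were called lower. Kit and Slamf6 ended near background, at 5.10 and 5.44. Il7r is also among the markers of other innate lymphoid cells above, and Kit among the stem and progenitor markers. Xcl1, Icos and Bcl2 did not pass between the outer subsets in the main fit, at -1.84, -1.58 and -0.79. The CD27-CD11b+ arrays read 9.16 and 11.51 for Bcl2.

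**Figure D4:**
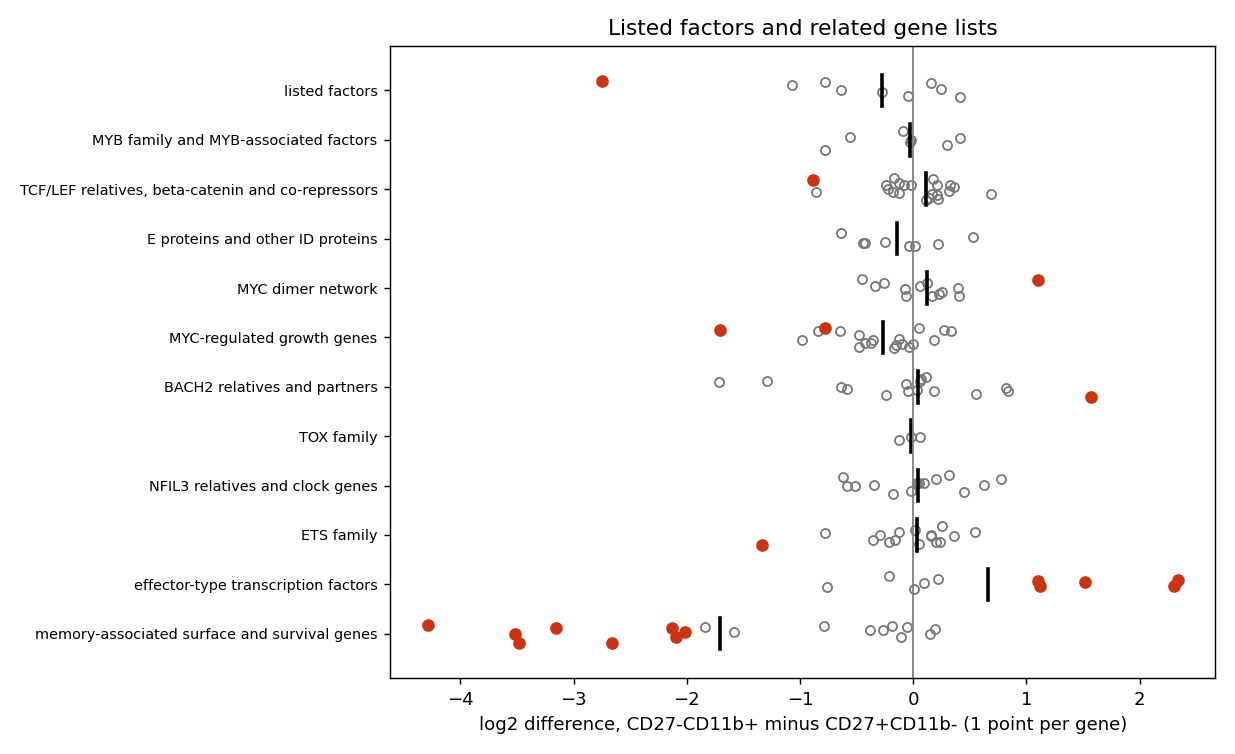
Log2 difference between CD27-CD11b+ and CD27+CD11b- (horizontal axis), 1 point per gene, for the 9 factors and 11 lists of related genes; filled points passed an adjusted p of 0.05 and black bars are list medians. The factor list has 1 filled point, Myb at -2.75, and the memory-associated list, drawn without the sorting marker Cd27, has 8, down to -4.29. The lists were chosen with earlier results of these data known.

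Myb and Myc spanned at least 1 log2 unit between subset means, and the genes most like them over the 6 arrays were sought among 485 other genes with such a span. For Myb these were Ctla2a, a cysteine protease inhibitor (Pearson r = 0.987), Kbtbd11 (0.982) and the chemokine receptor Ccr2 (0.982). For Myc they were Socs3, a feedback inhibitor of cytokine signalling (0.983), Plac8 (0.980) and Pdcd1lg2, which encodes PD-L2 (0.975). At the loss of CD27 these genes differed by -1.17, -2.12 and -1.03, and by -1.24, -1.03 and -1.56. The 6 arrays share subsets and the array division, so these correlations are descriptions.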

How the data were processed

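The deposited table holds log2 expression values of 45101 probe sets on 6 arrays, which the submitters' processing notes credit to RMA; its version is not given in the sources used here. The log2 scale was read from the values (2.60 to 14.72, array medians 5.26 to 5.35). RMA equalises distributions between arrays and compresses differences of dim genes. For arrays, their number limits the precision. After removal of 64 control probe sets, 34945 had 1 gene symbol in the array annotation, 932 several and 9160 none; genes were named from the first kind only. RefSeq held the gene identifiers of 34741 of these.

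One mean per subset was fitted with limma 3.58.1 in R 4.3.3 (3 residual and 4.93 prior degrees of freedom). The fit was tested on simulated data. All members were named; of each related list, called genes and up to 3 others with the largest outer difference above background; and the 3 genes most like a factor. The members, lists and alternatives were chosen with earlier results of these data known. Alternatives were blocks for replicate number and array division, each array left out, only the subsets compared, dim genes left out, an intensity trend with robust prior, 32 added on the linear scale, median centring, the mean of all probe sets, and all probe sets tested.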

Additional observations from a re-analysis of the deposited data

How the results depend on the processing

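Myb kept its call and direction at the loss of CD27 and between the outer subsets in all 15 alternatives, and 0 of 9 factors were called at the gain of CD11b in any. The number of factors called rose to 2 at the loss of CD27 and to 3 between the outer subsets with the array division as a block (Myc, and Myc with Id3), and to 2 between the outer subsets with the mean of all probe sets (Id2). In the test of the second step against the first it was 0 in the main fit and 1 (Myb) with the division as a block, without dim genes and with the intensity trend. In the F test over the 3 subsets it was 1, and 2 with the division as a block or the trend. With 1 array left out these counts stayed at 0, 1, 1, 0 and 1. The share of all probe sets called with the division as a block is not given here, so the blocked probe set counts below have no background. Member probe sets called at the loss of CD27 numbered 2, and 1 with the division as a block. Between the outer subsets they numbered 2, and 5 with the block. With 1 array left out they were 0 to 2 in both comparisons. At the loss of CD27 the number was 2 without CD27-CD11b+ replicate 2 and 0 without any other single array. Between the outer subsets it was 1 without the first and 0 without the second CD27+CD11b- array.

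Signs that turned belonged to differences that were not called. With the mean of all probe sets the gain of CD11b became 0.056 for Bach2, 0.37 for Id2 and 0.0050 for Ets1, and the outer difference of Ets1 0.018. With median centring the gain of CD11b became 0.0063 for Nfil3 and the outer difference of Ets1 0.0079. With 1 array left out the range crossed 0 at the gain of CD11b for Myb (-0.0051 to 0.27), Bach2 (-0.25 to 0.14) and Nfil3 (-0.11 to 0.074), at the loss of CD27 for Lef1 (-0.13 to 0.20), Tox (-0.69 to 0.26), Id3 (-0.22 to 0.12), Nfil3 (-0.13 to 0.49) and Ets1 (-0.063 to 0.37), and between the outer subsets for Nfil3 (-0.15 to 0.47) and Ets1 (-0.26 to 0.17).

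Over all genes, 22 were called at the gain of CD11b, 54 at the loss of CD27, 617 between the outer subsets, 1 in the test between steps and 246 in the F test. With the division as a block these became 58, 296, 1480, 2 and 874; with 32 added 0, 11, 367, 0 and 55; with all probe sets tested 0, 18, 288, 0 and 93. With the trend the loss of CD27 gave 101, the steps 3 and the F test 386; without dim genes the steps gave 2. The gain of CD11b gave 12 with only its 2 subsets and 11 with the mean of probe sets. With 1 array left out the ranges were 4 to 30, 6 to 53, 84 to 635, 0 to 0 and 53 to 237. The F test and the test between steps need all 3 subsets, so the fit of 2 subsets gave no value for them, and Id3 was not tested where dim genes were left out. The cause of these moves was not tested.

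With the replicate block, the test between steps over all genes went from 1 to 0, and no other count moved by over 1.5 times. Same-numbered arrays went together between the CD27+ subsets, where their deviations from subset means correlated at 0.72. With CD27-CD11b+ they did not, at -0.12 against CD27+CD11b+ and -0.26 against CD27+CD11b-. The array division crosses the replicate numbers for CD27-CD11b+ only, where these correlations are weak. Its counts stand above. The memory-associated list was also read without Cd27, a choice made after seeing the data; its median went from -1.70 to -1.71. Leaving out dim genes moved the median difference of all genes from 0.02 to 0.14 at the loss of CD27 and from -0.01 to 0.16 between the outer subsets. Detection calls were not used here, so genes near background, Id3 among them, cannot be ranked by level.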
